A study of Mus musculus with 10 samples.

Results

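The 10 genes described here write, copy or remove 2 repressive chromatin marks, and they were taken by symbol from the 24608 gene symbols of the count table. Ezh1, Ezh2, Eed and Suz12 encode the core of Polycomb repressive complex 2 (PRC2). Dnmt1, Dnmt3a and Uhrf1 place DNA methylation or copy it at replication, and Tet1, Tet2 and Tet3 oxidize it. Mouse muscle stem cells (MuSCs) were profiled by RNA-seq, with 5 libraries from control and 5 from Trpm7 cKO mice, 3 days after muscle injury by cardiotoxin (CTX), and each library was made from 3000 sorted YFP+ cells by the CEL-Seq2 protocol, which reads the 3′ end of transcripts and tags each molecule with a unique molecular identifier (UMI). Both genotypes carried Pax7 CreERT2/+ and the Rosa26 YFP reporter, with Trpm7+/+ in control and Trpm7 flox/flox in Trpm7 cKO mice. All were age-matched adults of both sexes on a C57BL6 background, and all received tamoxifen (TMX). Because Cre was driven from the Pax7 locus, deletion was directed to cells that expressed Pax7 when TMX was given. The labels do not say whether each library came from 1 animal, so p-values measure the spread between these libraries.

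PRC2 trimethylates lysine 27 of histone H3 (H3K27me3), with EZH2 as the catalytic subunit in dividing cells and EZH1 as the subunit that remains in resting ones, while EED binds the finished mark and SUZ12 holds the complex together. At replication UHRF1 recognizes half-methylated DNA and recruits DNMT1, which copies the methyl groups to the new strand; DNMT3A adds methyl groups to unmethylated sites, and the TET enzymes oxidize them as a step toward removal. In muscle stem cells EZH2 is known to keep genes of other lineages silent and to restrain the exit from self-renewal, and proliferation brings many of the enzymes above under the control of E2F factors.

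The promoters of 4 of the 10 genes are shown because each holds an E2F word, a feature that the choice of the genes did not use. RefSeq windows of GRCm38.p6, from 250 bases before to 50 bases after a start site, were found for all 10 genes, 15 windows in total. The words searched for E2F were TTTCCCGC, TTTGGCGC, TTTCGCGC and TTTGCCGC on both strands. They were in 4 of these 15 windows and in 744 of 32851 windows of all genes (2.26%). The windows are those of Ezh2 at chr6:47594981-47595280 (minus strand), Dnmt1 at chr9:20952574-20952873 (minus strand, 1 of 3 start sites listed), Suz12 at chr11:79992856-79993155 (plus strand) and Uhrf1 at chr17:56304063-56304362 (plus strand, 1 of 2). Each is printed 5′ to 3′ on the strand of the gene, with the E2F words in capitals, as their reverse complement where the word lies on the other strand.
Ezh2: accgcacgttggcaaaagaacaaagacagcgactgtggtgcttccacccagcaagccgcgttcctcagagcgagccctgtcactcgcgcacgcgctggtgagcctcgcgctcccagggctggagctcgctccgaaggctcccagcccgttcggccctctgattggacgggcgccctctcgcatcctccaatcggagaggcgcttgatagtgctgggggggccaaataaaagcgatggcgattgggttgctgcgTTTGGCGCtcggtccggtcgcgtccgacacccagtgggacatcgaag
Dnmt1: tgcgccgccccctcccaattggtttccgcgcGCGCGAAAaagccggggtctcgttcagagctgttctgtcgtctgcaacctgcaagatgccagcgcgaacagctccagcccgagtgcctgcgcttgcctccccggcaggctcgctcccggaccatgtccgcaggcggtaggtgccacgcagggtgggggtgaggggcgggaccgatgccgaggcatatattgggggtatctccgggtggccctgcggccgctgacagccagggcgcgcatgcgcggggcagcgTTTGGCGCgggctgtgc
Suz12: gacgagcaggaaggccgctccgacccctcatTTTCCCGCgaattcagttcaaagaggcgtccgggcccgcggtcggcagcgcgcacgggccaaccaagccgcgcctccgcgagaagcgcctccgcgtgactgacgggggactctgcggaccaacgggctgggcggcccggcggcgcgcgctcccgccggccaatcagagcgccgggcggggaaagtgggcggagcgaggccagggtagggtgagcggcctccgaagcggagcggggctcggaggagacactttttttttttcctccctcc
Uhrf1: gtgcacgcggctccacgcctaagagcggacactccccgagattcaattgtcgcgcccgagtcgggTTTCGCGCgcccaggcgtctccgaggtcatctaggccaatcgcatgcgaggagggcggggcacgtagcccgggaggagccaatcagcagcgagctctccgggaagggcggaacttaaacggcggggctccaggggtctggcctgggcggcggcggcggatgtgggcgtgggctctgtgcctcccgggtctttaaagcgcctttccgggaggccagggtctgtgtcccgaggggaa
Counted from 0 at the start site, the words begin at 3 in Ezh2, at -219 and 33 in Dnmt1, at -219 in Suz12 and at -185 in Uhrf1. The windows hold 31 CpG in Ezh2, 33 in Dnmt1, 41 in Suz12 and 33 in Uhrf1, at a GC content of 64.3 to 71.0%. Each E2F word itself holds a CpG, and the windows of all genes were not matched to these for CpG or GC content. No E2F word was found in the other windows of Dnmt1 and Uhrf1 or in those of Ezh1, Eed, Dnmt3a, Tet1, Tet2 or Tet3, which says only that these letters are not in those windows. The CCAAT box (CCAAT) was in 8 of the 15 windows against 37.41% of all windows, the GC box (GGGCGG) in 10 against 35.66% and the cell cycle homology region (TTTGAA) in 3 against 17.89%, each on both strands. No E2F word overlapped a match of these 3 motifs. A match is a description of the letters and not a bound site.

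Control libraries held 914361 to 1097709 counts and Trpm7 cKO libraries 205986 to 581121, without overlap (two-sided exact permutation p = 0.00794, which is the smallest this design allows). The 10 genes together had 699 to 864 counts in each control library and 128 to 515 in each Trpm7 cKO library, so single genes rest on few molecules in the smallest libraries, Trpm7 cKO replicates 3 and 5. Levels are given below as CPM, counts scaled to a common library size, with TMM normalization. The Trpm7 RNA itself was at 66.6 to 90.1 CPM in control and 46.4 to 101 CPM in Trpm7 cKO libraries, and where the deleted exons lie relative to the 3′ reads is not given in the sources used here, so these levels do not check the labels. As markers of the labelled cell type, Pax7, Myf5 and Vcam1 were present in every library. In bulk libraries, fewer cells of a type and less RNA per cell cannot be told apart.

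Of the 10 genes, 9 passed the filter on low counts and were tested among 7753 genes. On the TMM scale Dnmt1 and Suz12 were lower and Ezh1 and Dnmt3a higher in Trpm7 cKO, the latter pair being below 0 when raw counts per sorted cell were compared, while Ezh2, Eed, Uhrf1, Tet2 and Tet3 did not pass the adjusted p-value threshold of 0.05 in edgeR's quasi-likelihood test. The background was of the same order: 24.1% of all tested genes were lower and 24.6% higher, so 2 of 9 in each direction is no more than the share of all genes. None of the 9 also passed a log2 fold change of 1.5, which 3.53% of tested genes did downward and 8.49% upward. In 1 of the 9, Dnmt1, every Trpm7 cKO library was below every control library, as in 17.9% of tested genes, and in 0 of 9 every Trpm7 cKO library was above, as in 16.6%. The median log2 fold change was -0.06 over the 9 genes and -0.01 over all tested genes.

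**Figure D1:**
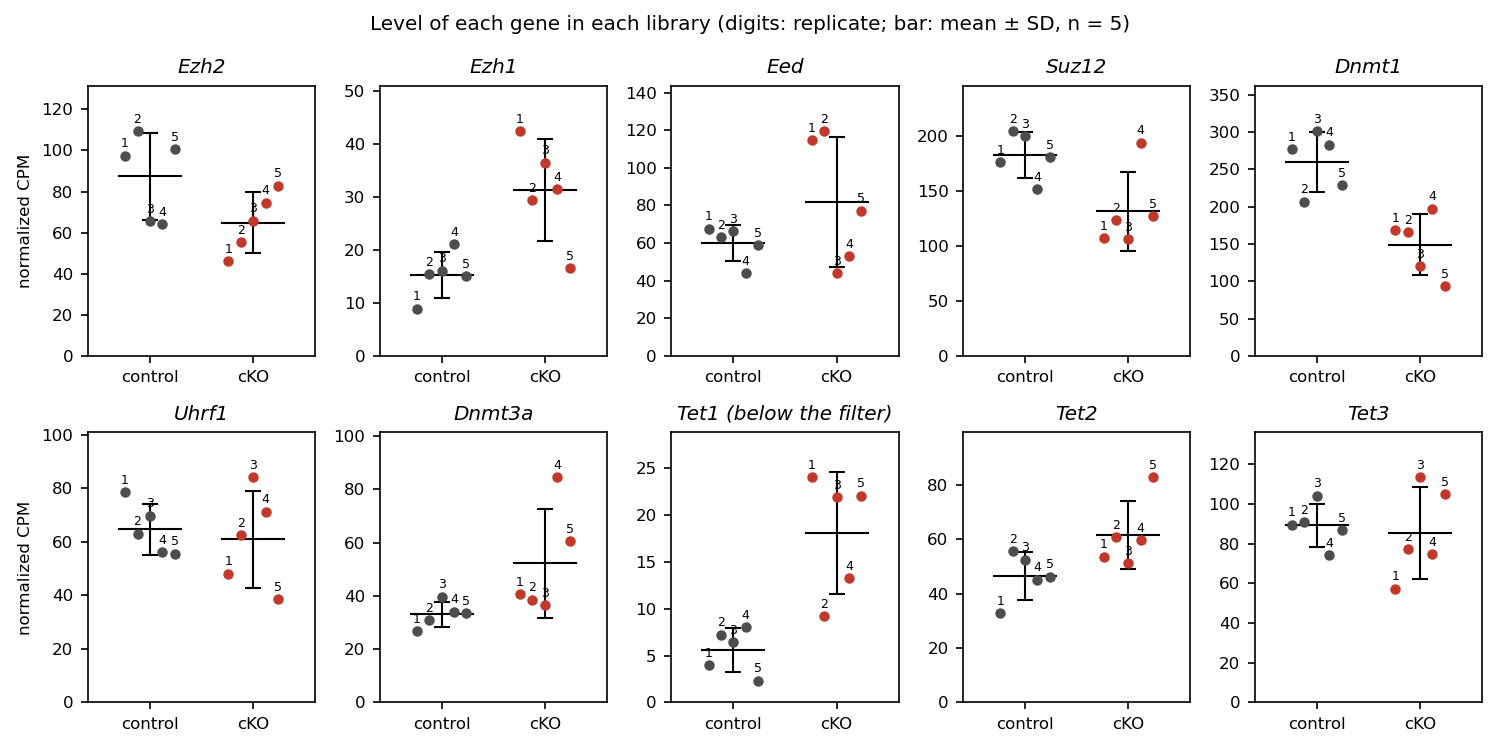
Normalized CPM of each of the 10 genes in the 5 control and 5 Trpm7 cKO libraries, 1 point per library with its replicate number, and the mean ± SD as bars (n = 5). The genotypes separate fully for Dnmt1 (93.8 to 197 CPM in Trpm7 cKO, 207 to 301 CPM in control) and for the untested Tet1 (9.20 to 24.0 CPM against 2.32 to 8.03 CPM), and overlap for the others.

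Among the PRC2 core genes, the catalytic subunit Ezh1 was higher on the TMM scale, though not in unscaled raw counts, and Ezh2 did not pass the test. Ezh2 (chr6:47530139-47595341, minus strand) was at 97.5, 109, 65.4, 64.2 and 101 CPM in control replicates 1 to 5. In Trpm7 cKO replicates 1 to 5 it was at 46.2, 55.2, 65.8, 74.6 and 82.8 CPM. Control replicates 1, 2 and 5 lay above every Trpm7 cKO library, and control replicates 3 and 4 lay within their range. The log2 fold change was -0.47 (SE 0.21, 95% interval -0.91 to -0.04), with an adjusted p of 0.0636 in edgeR's quasi-likelihood test (unadjusted p = 0.0324).

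Ezh1 (chr11:101191115-101226463, minus strand) was a low-count gene, with 9 to 21 counts per control library and 3 to 23 per Trpm7 cKO library. Its levels were 8.95, 15.5, 16.1, 21.1 and 15 CPM in control and 42.5, 29.4, 36.5, 31.5 and 16.6 CPM in Trpm7 cKO replicates. Trpm7 cKO replicates 1 to 4 were above every control library, and replicate 5, which had 3 counts, was within the control range. Ezh1 was 2.13-fold higher in Trpm7 cKO, a log2 fold change of 1.09 (SE 0.28, 95% interval 0.51 to 1.66, adjusted p = 0.00256 in edgeR's quasi-likelihood test). This was the largest difference among the 9 tested genes. Within each library the ratio of Ezh2 to Ezh1 counts, which no scaling alters, was 10.9, 7.07, 4.07, 3.05 and 6.69 in control and 1.09, 1.88, 1.80, 2.37 and 5.0 in Trpm7 cKO replicates, so that 4 Trpm7 cKO libraries lay below the control range and replicate 5 within it.

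Suz12 (chr11:79993106-80034123, plus strand) was at 176, 204, 199, 152 and 181 CPM in control and at 107, 123, 106, 194 and 127 CPM in Trpm7 cKO replicates 1 to 5. Trpm7 cKO replicate 4 stood among the controls and the other 4 were below all of them. Suz12 was 1.37-fold lower in Trpm7 cKO (log2 fold change -0.45, SE 0.17, 95% interval -0.81 to -0.09, adjusted p = 0.0364 in edgeR's quasi-likelihood test). The call was near the threshold: it held in 2 of 10 fits that left out 1 library, those without control replicate 4 and without Trpm7 cKO replicate 4. Without Trpm7 cKO replicate 4 the log2 fold change was -0.68.

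Eed (chr7:89954654-89980983, minus strand) was at 67.6, 63.0, 66.5, 44.2 and 59.0 CPM in control and at 115, 120, 43.8, 53.0 and 77.3 CPM in Trpm7 cKO replicates. Trpm7 cKO libraries lay on both sides of the control range, with replicates 1, 2 and 5 above it. The log2 fold change was 0.49 (SE 0.24, 95% interval -0.00036 to 0.98, adjusted p = 0.0909 in edgeR's quasi-likelihood test), and it passed the threshold without Trpm7 cKO replicate 3 (0.62) or replicate 4 (0.65). Per Eed count, Suz12 had 2.60 to 3.43 counts in control libraries, and 0.935, 1.03, 2.42, 3.66 and 1.64 in Trpm7 cKO replicates 1 to 5. The Ezh2 to Eed ratio was 0.984 to 1.74 in control and 0.403, 0.462, 1.5, 1.41 and 1.07 in Trpm7 cKO. For both ratios replicates 1 and 2 were below the control range, while for Suz12 alone replicates 3 and 5 were below it and replicate 4 above.

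Of the genes that maintain DNA methylation, Dnmt1, the methyltransferase of the replication fork, was the member with the clearest separation. Dnmt1 (chr9:20907209-20959888, minus strand) was at 277, 207, 301, 283 and 229 CPM in control and at 168, 166, 121, 197 and 93.8 CPM in Trpm7 cKO replicates 1 to 5. All Trpm7 cKO libraries were below all control libraries. The mean was 149 ± 41.3 CPM (SD, n = 5) against 260 ± 39.9 CPM in control (SD, n = 5). The fitted difference was 1.68-fold lower, a log2 fold change of -0.75 (SE 0.17, 95% interval -1.11 to -0.38, adjusted p = 0.00146 in edgeR's quasi-likelihood test), and Dnmt1 remained lower past the threshold in each of the 10 fits that left out 1 library (-0.87 to -0.65).

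Uhrf1 (chr17:56303321-56323486, plus strand), whose product recruits DNMT1 to newly copied DNA, was at 78.6, 63.0, 69.7, 56.2 and 55.6 CPM in control and at 48.0, 62.6, 84.0, 71.2 and 38.6 CPM in Trpm7 cKO replicates. Trpm7 cKO libraries extended on both sides of the control range, the lowest being replicate 5 with 7 counts. The log2 fold change was -0.06 (SE 0.20, 95% interval -0.47 to 0.34, adjusted p = 0.809 in edgeR's quasi-likelihood test). The ratio of Uhrf1 to Dnmt1 counts was 0.283, 0.305, 0.231, 0.199 and 0.242 in control and 0.286, 0.378, 0.697, 0.361 and 0.412 in Trpm7 cKO replicates, with replicate 1 inside and the other 4 above the control range.

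Dnmt3a (chr12:3806007-3914443, plus strand), the de novo methyltransferase, was at 26.8, 31, 39.7, 34.1 and 33.6 CPM in control and at 40.7, 38.6, 36.5, 84.5 and 60.7 CPM in Trpm7 cKO replicates. Trpm7 cKO replicates 2 and 3 were inside the control range, replicate 1 was just above it, and replicates 4 and 5 were well above. Dnmt3a was 1.6-fold higher (log2 fold change 0.68, SE 0.24, 95% interval 0.17 to 1.18, adjusted p = 0.0252 in edgeR's quasi-likelihood test). Replicate 4 decided the call, since without it the log2 fold change was 0.33 with an adjusted p of 0.245 in the same test; without control replicate 1 it was 0.61, with an adjusted p of 0.0605. The ratio of Dnmt3a to Dnmt1 counts did separate the genotypes in every library: it was 0.0968, 0.150, 0.132, 0.121 and 0.146 in control and 0.242, 0.233, 0.303, 0.429 and 0.647 in Trpm7 cKO replicates. Dnmt1 alone already separated the genotypes, and the other ratios given here overlapped between them. The ratios are given as a description without a test. Dnmt3b, the other de novo methyltransferase, had 2 to 7 counts per control and 1 to 5 per Trpm7 cKO library and was not tested.

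**Figure D2:**
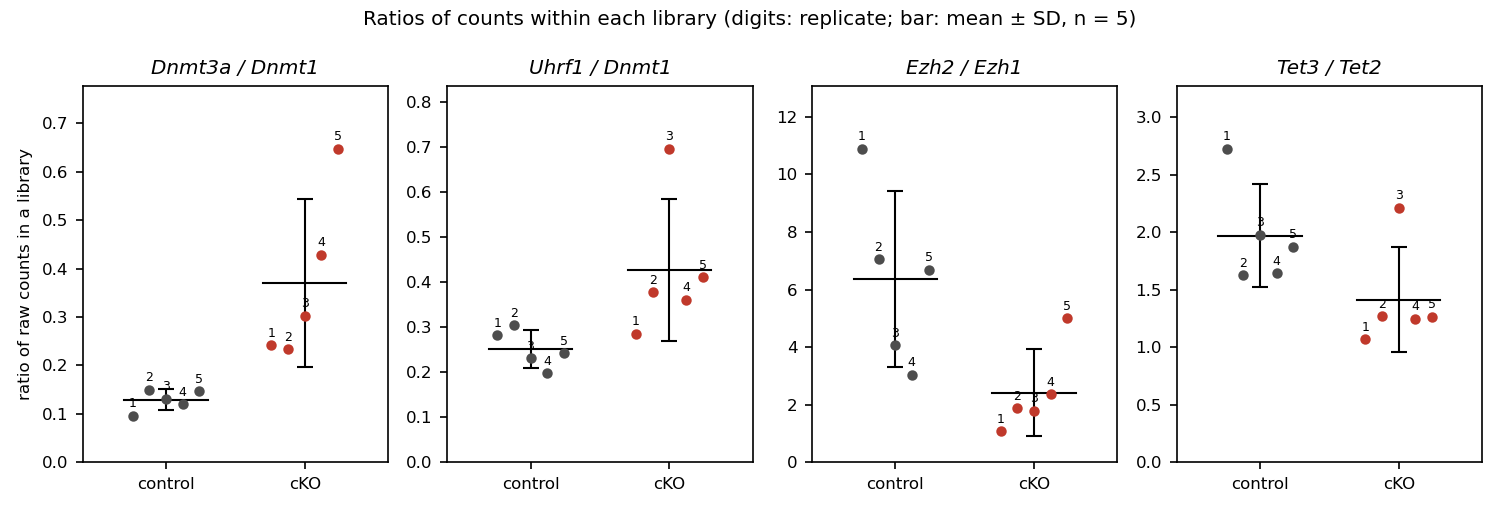
Ratio of raw counts of 2 genes within each library (vertical axes) for Dnmt3a to Dnmt1, Uhrf1 to Dnmt1, Ezh2 to Ezh1 and Tet3 to Tet2, 1 point per library with its replicate number, and the mean ± SD (n = 5). The Dnmt3a to Dnmt1 ratio is 0.0968 to 0.150 in control and 0.233 to 0.647 in Trpm7 cKO, and the other 3 ratios overlap.

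Of the 3 TET genes, Tet2 and Tet3 did not pass the test and Tet1 was not tested. Tet3 (chr6:83362373-83459084, minus strand) was at 89.5, 90.9, 104, 74.3 and 86.8 CPM in control and at 57.3, 77.3, 113, 74.6 and 105 CPM in Trpm7 cKO replicates, with Trpm7 cKO libraries below, inside and above the control range. Its log2 fold change was -0.13 (SE 0.18, 95% interval -0.51 to 0.25, adjusted p = 0.581 in edgeR's quasi-likelihood test). Tet2 (chr3:133463679-133545139, minus strand) was at 32.8, 55.8, 52.6, 45.2 and 46.3 CPM in control and at 53.6, 60.7, 51.2, 59.6 and 82.8 CPM in Trpm7 cKO replicates. The Trpm7 cKO libraries sat at or above the upper part of the control range, and the log2 fold change was 0.36 (SE 0.20, 95% interval -0.05 to 0.77, adjusted p = 0.132 in edgeR's quasi-likelihood test). The Tet3 to Tet2 ratio of counts was 1.63 to 2.73 in control and 1.07, 1.27, 2.21, 1.25 and 1.27 in Trpm7 cKO replicates, below the control range in all but replicate 3.

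Tet1 (chr10:62804570-62908996, minus strand) was rare in both genotypes. It had 4, 7, 6, 8 and 2 counts in control and 13, 5, 6, 8 and 4 counts in Trpm7 cKO replicates, or 3.98, 7.23, 6.43, 8.03 and 2.32 CPM against 24.0, 9.20, 21.9, 13.3 and 22.1 CPM. All Trpm7 cKO libraries were above all control libraries in CPM, although the raw counts overlapped. On CPM by library total, without TMM factors, Tet1 exceeded the filter's cutoff of 13.4 in 0 control and 4 Trpm7 cKO libraries, one fewer than the filter asks, and was left out. Among the 14161 genes with a count that the filter removed, 4.43% had every Trpm7 cKO library above every control library, and 66.8% had a higher mean in Trpm7 cKO, with a median ratio of 1.85. These genes took 2.56 to 2.95% of the counts in control and 4.39 to 5.46% in Trpm7 cKO libraries. The part of this shift in the value for Tet1 was not tested. In a fit without the filter, in which 12.0% of 21914 genes were lower and 13.1% higher, Tet1 had a log2 fold change of 1.37 (SE 0.45, adjusted p = 0.00916 in edgeR's quasi-likelihood test).

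Because the Trpm7 cKO libraries were smaller, the directions were compared across scalings. With total counts and no TMM factors the median of all tested genes was 0.10 on the log2 scale. Scaled on 15 MuSC identity genes it was -0.39, and with raw counts per 3000 sorted cells it was -1.15. These raw counts are unscaled, so they also carry the yield and sequencing depth of each library, and RNA per cell was not measured. In the unscaled counts Dnmt1 was at -1.82, while Ezh1 was at -0.04 and Dnmt3a at -0.45, lower in sign but above the median of all genes. Ezh2 was at -1.64 there and passed the threshold (adjusted p = 1.02e-04 in edgeR's quasi-likelihood test), as did Uhrf1 at -1.21 and Tet3 at -1.33, both near the median of all genes. Dnmt1 was lower past the threshold under every scaling tried, and Ezh1 was higher past it under TMM, RLE factors and total counts but not on the MuSC identity scale (0.70, adjusted p = 0.0534 in edgeR's quasi-likelihood test).

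**Figure D3:**
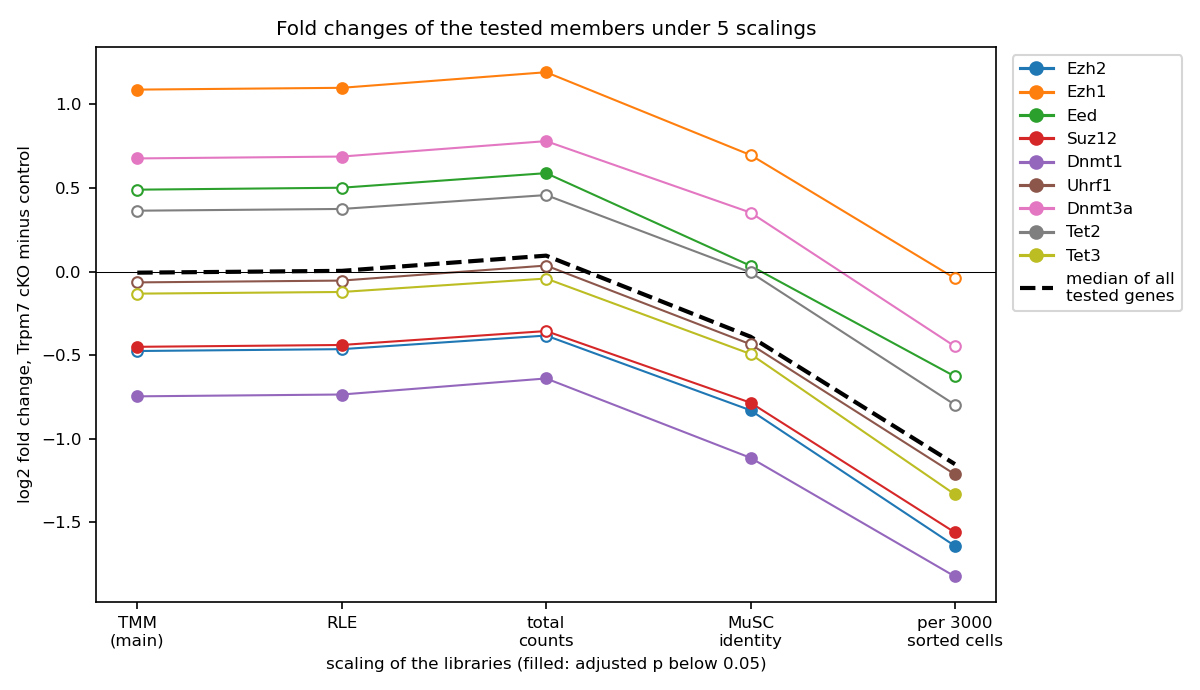
Log2 fold change (Trpm7 cKO minus control) of the 9 tested genes under each scaling, with the median of all tested genes beside them. The order of the genes is kept, while the median of all genes moves from -0.01 with TMM to -0.39 on MuSC identity genes and -1.15 per 3000 sorted cells, where Ezh1 (-0.04), Dnmt3a (-0.45), Eed (-0.63) and Tet2 (-0.80) are below 0.

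Other genes of the 2 systems were described from 4 lists with 55 genes, of which 54 were in the table and 36 were tested. Of these 36, 4 were lower, 8 were higher and 24 did not pass the threshold, beside the background of 24.1% lower and 24.6% higher. Their median log2 fold change was -0.12 against -0.01 for all genes. These calls are on the TMM scale. Scaled on MuSC identity genes, 14 were lower and 5 higher, beside 2855 lower and 1062 higher of all 7753 tested genes. Per 3000 sorted cells, 26 were lower and 0 higher, beside 5162 and 380 of all tested genes. The higher genes included Zbtb4 and Zbtb38, readers of methylated DNA, and the H3K27me3 demethylases Kdm6a and Kdm6b, and 3 of the 8 (Cbx6, Kdm6b and Zbtb4) also passed a log2 fold change of 1.5. The count of lower genes depended on the filter, with 12 of 54 lower in the fit without it, where 12.0% of 21914 genes were lower. Of these 54 genes 36 had passed the filter, against 7753 of the 21914. The 2 shares therefore come from sets of unlike expression and cannot be set against each other. The fit without the filter also shifted the scale: the median of the 7753 genes tested above was -0.20 in it, against -0.01 with the filter. The count of higher genes was 8 in both fits, but without the filter Jarid2 (0.33, adjusted p = 0.200) and Kdm6a (0.51, adjusted p = 0.0806) did not pass. Phf1 and Dppa3, named after their values were seen, passed in their place on few molecules. Phf1 had 2 to 4 counts per control and 4 to 10 per Trpm7 cKO library. Dppa3 had 0 counts in every control and 0 to 4 per Trpm7 cKO library, so its fold change and SE are not usable. Adjusted p-values here and in the next 4 paragraphs are from edgeR's quasi-likelihood test.

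Of 6 tested partner proteins of PRC2, 2 were lower, 1 was higher and 3 did not pass, with a median log2 fold change of -0.31. Mtf2, a Polycomb-like protein that brings PRC2 to CpG islands, was at 74.0 ± 15.5 CPM in control and 30.5 ± 12.9 CPM in Trpm7 cKO (SD, n = 5), a log2 fold change of -1.32 (SE 0.24, adjusted p = 1.58e-04). Rbbp4, a histone-binding subunit shared with other complexes, was at 457 ± 19.4 and 356 ± 42.6 CPM (log2 fold change -0.35, SE 0.13, adjusted p = 0.0273). Jarid2, the DNA-binding partner of the alternative PRC2 form, was higher, at 79.9 ± 12 and 115 ± 9.11 CPM (0.54, SE 0.15, adjusted p = 0.00657). For all 3 genes the libraries of the 2 genotypes did not overlap. Among all tested genes, 17.9% had every Trpm7 cKO library below every control library and 16.6% above. The 3 genes were named because they were called, so this is a description.

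Of 14 tested subunits of PRC1, which binds H3K27me3 and ubiquitinates histone H2A, 1 was lower, 2 were higher and 11 did not pass, with a median of -0.08. Pcgf3, which defines a variant PRC1, was at 162 ± 16.6 CPM in control and 79.8 ± 10.6 CPM in Trpm7 cKO (SD, n = 5; log2 fold change -0.98, SE 0.15, adjusted p = 1.99e-05). Cbx6, a chromodomain subunit, was at 23.7 ± 5.92 and 79.9 ± 13.4 CPM (1.71, SE 0.21, adjusted p = 2.20e-06). Phc3, a polyhomeotic subunit, was at 38.8 ± 3.30 and 68.1 ± 9.15 CPM (0.82, SE 0.18, adjusted p = 6.28e-04). Another chromodomain subunit, Cbx2, named after its values were seen, did not pass the filter at 8 to 17 counts per control and 0 to 4 counts per Trpm7 cKO library. It had a log2 fold change of -1.83 (SE 0.52, adjusted p = 0.00210) in the fit without the filter.

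The 6 tested erasers of Polycomb marks included 0 lower and 2 higher genes. Kdm6b, an H3K27me3 demethylase, was at 64.1 ± 10.5 CPM in control and 242 ± 138 CPM in Trpm7 cKO (SD, n = 5; log2 fold change 1.81, SE 0.31, adjusted p = 3.19e-04). Its raw counts were 79 to 88 in all 5 Trpm7 cKO libraries, whose totals differed from 205986 to 581121, so that the smallest library had the highest CPM. Kdm6a, the related demethylase on the X chromosome, was at 38.9 ± 6.07 and 61.4 ± 22.2 CPM, with overlap between the genotypes (0.70, SE 0.23, adjusted p = 0.0163).

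Among 10 other tested genes of DNA methylation, 1 was lower and 3 were higher, with a median of 0.04. The readers Zbtb4 and Zbtb38, which bind methylated CpG, had the largest differences. Zbtb4 was at 16.6 ± 5.77 CPM in control and 67.1 ± 25.8 CPM in Trpm7 cKO (SD, n = 5; log2 fold change 1.91, SE 0.28, adjusted p = 1.11e-05), and Zbtb38 was at 55.6 ± 11.2 and 116 ± 12.7 CPM (1.07, SE 0.17, adjusted p = 3.42e-05). Uhrf2, the relative of Uhrf1, was at 94.3 ± 6.12 and 68.7 ± 11.1 CPM (-0.42, SE 0.16, adjusted p = 0.0341).

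**Figure D4:**
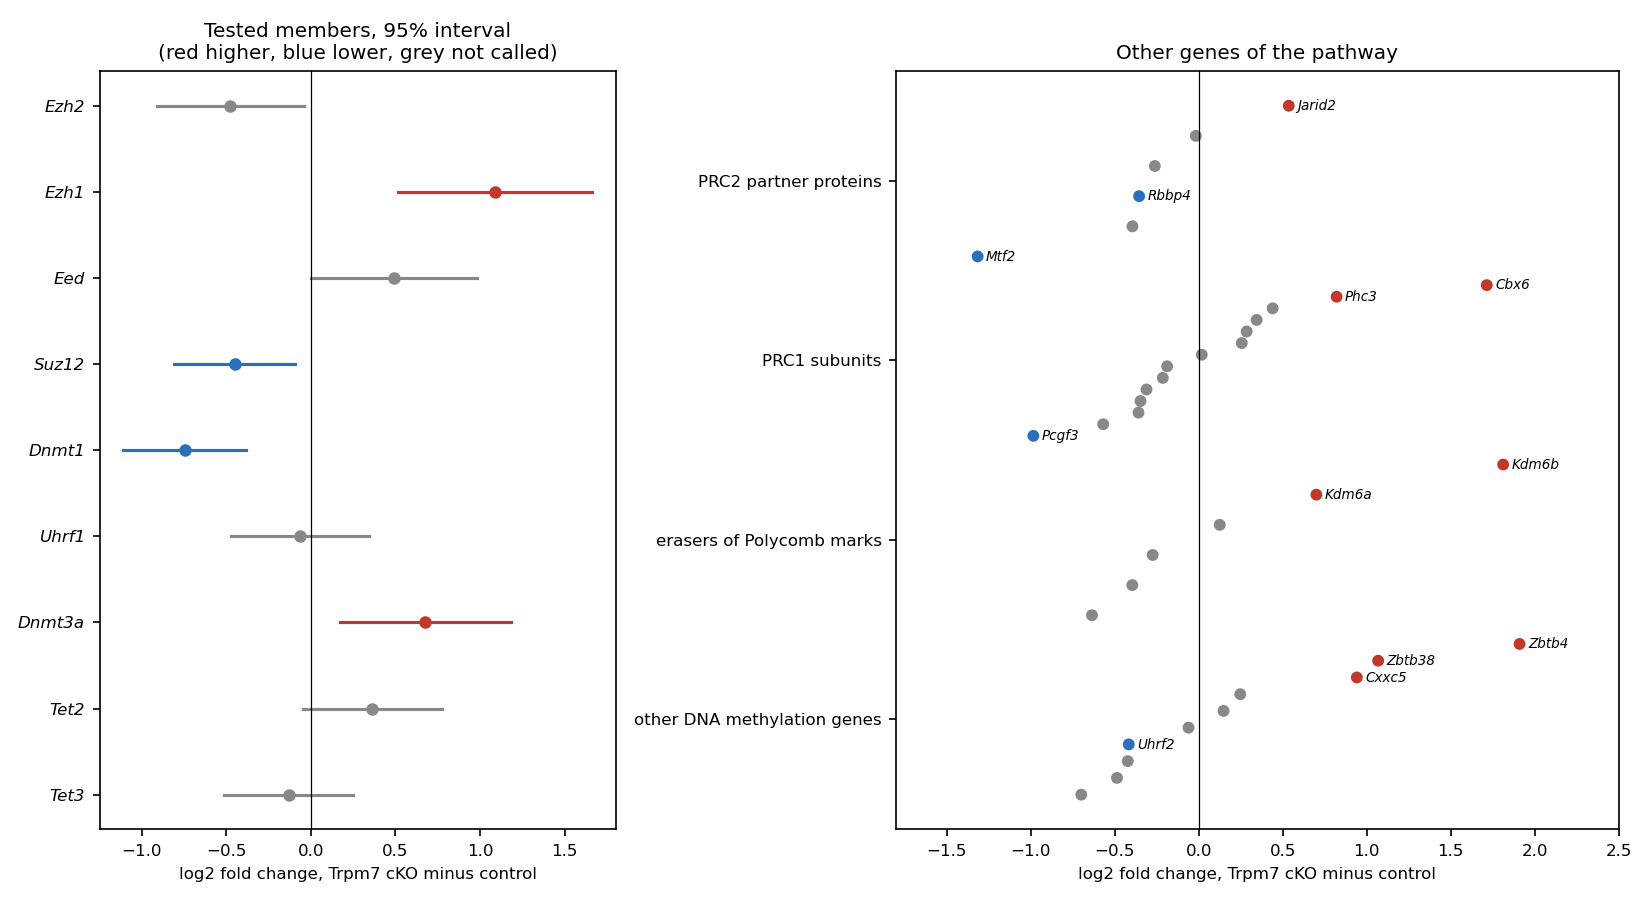
Left, log2 fold change (Trpm7 cKO minus control, TMM scaling) of the 9 tested genes with 95% intervals, and right, the same value for 36 other tested genes in the 4 lists, in red where higher, blue where lower and grey where the adjusted p was 0.05 or more. On the left the intervals of Ezh1, Dnmt3a, Suz12 and Dnmt1 are coloured, and on the right Zbtb4 (1.91) and Kdm6b (1.81) lie farthest up and Mtf2 (-1.32) farthest down. The colours hold under TMM. Per 3000 sorted cells the red points of Ezh1 and Dnmt3a fall below 0, and 0 genes on the right pass as higher.

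Hox genes and the Cdkn2a locus, known Polycomb targets in other settings, were read at the RNA level, with no measurement of H3K27me3 or DNA methylation. The list held 29 Hox genes with Cdkn2a and Cdkn2b, of which 29 had a count and 8 were tested. These 8 were not silent in control libraries, where Hoxc10 was at 76.5, Hoxc11 at 46.6, Hoxc6 at 32.4 and Hoxa9 at 29.4 CPM on average. Hoxc6, Hoxc9, Hoxa10 and Hoxc8 were higher on the TMM scale. Their log2 fold changes were 1.33 (SE 0.27), 1.24 (SE 0.28), 1.12 (SE 0.33) and 1.1 (SE 0.25). Their unscaled raw counts, summed over the 5 libraries of each genotype, were close to equal. These totals were 154, 88, 87 and 83 in control and 166, 94, 85 and 79 in Trpm7 cKO. Hoxc11 at -1.17 (SE 0.26) and Hoxa9 at -0.64 (SE 0.25) were lower, and Hoxa5 (0.53) and Hoxc10 (0.15) did not pass. Each call had an adjusted p of 0.0418 or less in edgeR's quasi-likelihood test. Among all tested genes 24.6% were higher and 24.1% lower. The median of the 8 was 0.82 against -0.01 for all genes, and their summed level with the untested genes of the list was 267 to 336 CPM in control and 325 to 493 CPM in Trpm7 cKO. Cdkn2a, which encodes the cell cycle inhibitors p16 and p19 and is a known Polycomb target, had 3 to 7 counts per control and 0 to 3 per Trpm7 cKO library, too few to test. Of 15 germline genes known to be silenced by DNA methylation, 8 were in the table and 0 were tested. Their summed level was 1.07 to 10 CPM in control and 11.6 to 21.9 CPM in Trpm7 cKO, the same direction as the filtered genes above, whose part was not tested. These sums rest on 1 to 10 counts per control and 3 to 10 per Trpm7 cKO library, so the raw counts overlapped.

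The marks are copied at replication, so genes of DNA replication and nucleotide supply stand beside these results. Of 11 tested replication genes, 0 were higher in Trpm7 cKO and 8 were lower, with a median log2 fold change of -0.76. Among all tested genes 24.6% were higher and 24.1% lower. The summed level of the 12 genes on the list was 2319, 1775, 2219, 2268 and 1748 CPM in control and 621, 905, 658, 1193 and 563 CPM in Trpm7 cKO replicates, without overlap. Rrm2, a subunit of ribonucleotide reductase, carried much of it, at 1170 ± 278 CPM in control and 229 ± 109 CPM in Trpm7 cKO (SD, n = 5), and without Rrm2 the sums were 832 to 1013 CPM in control and 440, 626, 475, 802 and 453 CPM in Trpm7 cKO replicates, still without overlap. Trpm7 cKO replicate 4 had the highest Suz12, Dnmt1 and replication sum of its genotype. The other libraries did not keep one order: replicate 5, with the lowest Dnmt1 and sum, was next to highest in Suz12, and replicate 1, next to lowest in the sum, was next to highest in Dnmt1. The part of the replication genes in the Dnmt1 and Suz12 values was not tested.

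Markers of other cells also moved with genotype. All 13 tested genes of 15 leukocyte markers were higher in Trpm7 cKO, with a median of 3.04, beside 24.6% of all tested genes higher. Several, such as Ptprc, Cd68 and Adgre1, had control means below the filter's cutoff of 13.4 CPM. They were thus tested mainly through the Trpm7 cKO libraries, so the filter favoured this direction and the count is a description. The summed level was 329 to 557 CPM in control and 1200 to 5097 CPM in Trpm7 cKO libraries, with the defining markers Ptprc, Cd68 and Adgre1 at 56.7, 63.9 and 52.8 CPM on average against 8.0, 5.87 and 4.85 CPM. Trpm7 cKO replicate 4, the highest in Dnmt3a (84.5 CPM), was also the highest in leukocyte markers, and replicate 2, the lowest in them, was at 38.6 CPM for Dnmt3a, while replicate 3 was the lowest in Dnmt3a at 36.5 CPM. Of 9 endothelial and fibroadipogenic markers, 6 were tested and 5 were higher, with sums of 870 to 1852 CPM in control and 1319 to 2951 CPM in Trpm7 cKO. Col3a1, the tested marker that did not pass, carried most of these sums, at 1179 CPM on average in control and 1441 CPM in Trpm7 cKO. The limit set by the filter also holds for Pecam1, Cdh5 and Dpt, with control means of 5.29, 4.07 and 10.3 CPM. MuSC identity genes had 2 lower, 9 higher and 4 not passing of 15 tested, with sums of 3162 to 3729 CPM in control and 5586, 5074, 4633, 3257 and 4807 CPM in Trpm7 cKO replicates. Pax7 itself was higher (206 ± 33.7 CPM in control, 474 ± 122 CPM in Trpm7 cKO, log2 fold change 1.19, adjusted p = 2.40e-05 in edgeR's quasi-likelihood test). The part of other cells in the values of the 10 genes was not tested.

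**Figure D5:**
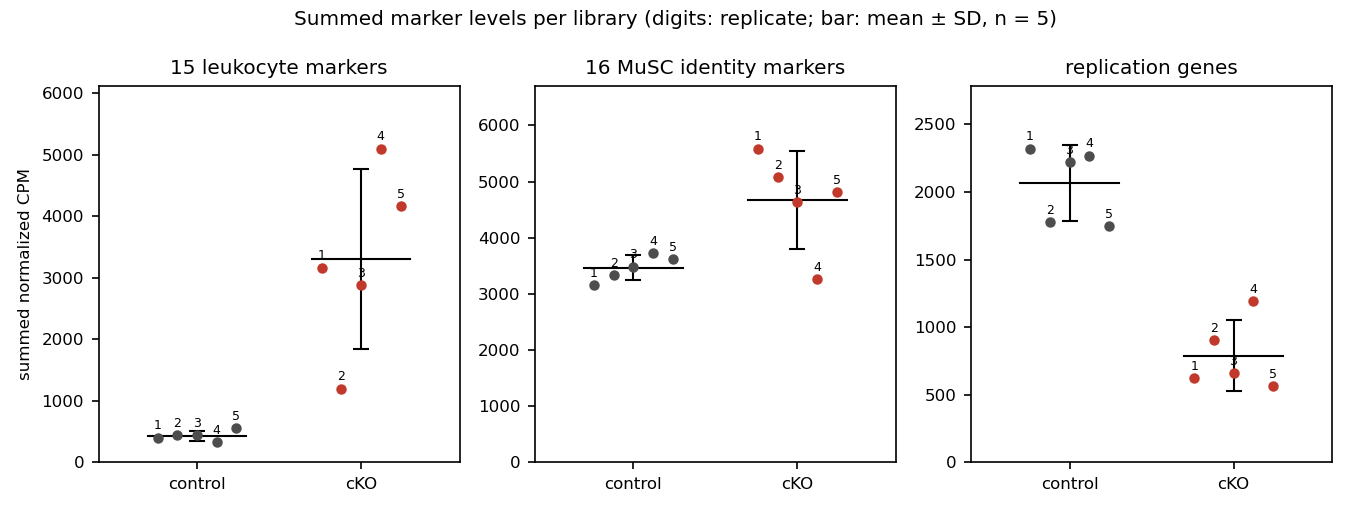
Summed normalized CPM of 15 leukocyte markers, 16 MuSC identity markers and 12 replication genes in each library, 1 point per library with its replicate number, and the mean ± SD (n = 5). Leukocyte sums are 1200 to 5097 in Trpm7 cKO against 329 to 557 in control, and replication sums 563 to 1193 against 1748 to 2319.

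As a description of which genes vary with them from library to library, log2 CPM was centred on the mean of each genotype and Pearson's r was taken over the 10 libraries for the 3 members with the most counts. The nearest of 7752 genes were Cacybp (0.98), Ppic (0.98) and Ercc6l2 (0.98) for Dnmt1. For Suz12 they were Tmcc3 (0.93), Actg1 (0.91) and Birc5 (0.88), and for Tet3 they were Midn (0.97), Baiap2 (0.96) and Ap1s1 (0.93). The 10 points share the libraries' depth, and values this high are the extreme of 7752 values.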

How the data were processed

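RNA-seq libraries of sorted MuSCs were compared between 5 control and 5 Trpm7 cKO libraries, with genotype and replicate number from the sample labels. The authors extracted UMIs with UMI-tools 1.1.4, trimmed reads with Trim Galore 0.6.10, aligned them to GRCm38 with HISAT2 2.2.1, assigned them to genes with featureCounts 2.0.6 and removed UMI duplicates, per the submitters' processing notes and the methods. The deposited table gives raw counts, 1 per molecule. The annotation release and strand setting are not given in the sources used here. No other annotated gene overlaps the last exon of any of the 10 genes, and none of their last 500 transcript bases are shared with another gene in matches of 31 bases.

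The table has 24620 entries under 24608 symbols; for the 12 doubled symbols the entry with the larger total was kept. Genes were kept by filterByExpr (minimum count 10, minimum total 15), leaving 7753. Genotype was tested by edgeR 4.0.16 (R 4.3.3) with TMM scaling, a robust quasi-likelihood fit and Benjamini-Hochberg adjustment over all tested genes. A gene was called lower or higher at an adjusted p below 0.05, and the log2 fold change threshold of 1.5 was taken from the study. SE came from the fold change before shrinkage and its F value, while intervals were centred on the reported, shrunken fold change. Single values were compared by exact permutation tests, two-sided. Counts within a genotype differed between every pair of libraries by more than counting noise. The fit was tested on simulated counts.

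The members, the lists and the rules for named genes were chosen with earlier results of these data known. Named are the 10 members; of each pathway list the 2 called genes with the largest change in each direction; of marker lists the defining genes; of silenced genes Cdkn2a and called Hox genes; and the 3 genes nearest to each of the 3 members with most counts. Genes of a list that did not pass were also named in a few cases. Of the DNA methylation list, 1 gene is not reported here and enters none of its counts. Alternatives were DESeq2 1.42.0, limma-voom 3.58.1, RLE factors, total counts, no scaling (counts per 3000 sorted cells), scaling on MuSC identity genes, no filter, a minimum count of 30, thinning to 205986 counts, the replicate number as a block, Trpm7 cKO replicates 4 and 5 summed (their library names share a number of unstated meaning), and each library left out. Leaving out the 2 smallest Trpm7 cKO libraries was added after the data were seen. Intervals cover the spread between libraries.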

Additional observations from a re-analysis of the deposited data

Results flagged for a closer look

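Of 20 groups of 5 libraries (10 genes in 2 genotypes), 1 held a library far from the rest by Dixon's ratio at its 95% critical value of 0.71, and chance gives about 1 in 20. Suz12 in Trpm7 cKO replicate 4 was at 194 CPM, while the other 4 Trpm7 cKO libraries were at 106 to 127 CPM, a ratio of 0.762. Without this library the log2 fold change of Suz12 was -0.68 and its adjusted p was 0.00102 in edgeR's quasi-likelihood test, against -0.45 with it.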

How the results depend on the processing

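Dnmt1 was lower past the threshold in all 22 alternatives (-1.82 to -0.55). Members lower, 2 here, were 1 with total counts, the stricter filter, thinned counts and without the 2 smallest Trpm7 cKO libraries, and 5 per 3000 sorted cells, with 1 to 3 when 1 library was left out (1 without control replicate 1, 2 or 5 or Trpm7 cKO replicate 1, 2 or 3). Members higher, also 2, were 0 on MuSC identity genes and per 3000 cells. They were also 0 in thinned counts, where Ezh1 and Dnmt3a were not tested, and under the stricter filter, which left out both as well, the 2 higher were Eed and Tet2. They were 1 to 3 with 1 library left out (1 without control replicate 1). With DESeq2 and with no filter the 2 were Ezh1 and Tet1, the latter untested in the main fit. Members beyond a log2 fold change of 1.5, 0 here, were 1 with DESeq2, 3 per 3000 cells and 0 to 1 with 1 library left out, the 1 without Trpm7 cKO replicate 2. With DESeq2 and without that library the 1 was Tet1, which the main fit did not test. Pathway genes lower, 4 here, were 2 with total counts, the stricter filter and the replicate block, 14 on MuSC identity genes, 26 per 3000 cells, 12 with no filter, and 2 to 7 with 1 library left out (2 without control replicate 1 or 5 or Trpm7 cKO replicate 5, 7 without Trpm7 cKO replicate 4). Pathway genes higher, 8 here, were 5 on MuSC identity genes and 0 per 3000 cells.

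Values that changed sign were those of Uhrf1 (0.036 with total counts, 0.044 with the stricter filter, 0.50 thinned, -0.16 to 0.019 with 1 library left out), Tet3 (0.079 thinned), Tet2 (-0.00413 on MuSC identity genes, -0.80 per 3000 cells), Ezh1 (-0.040 per 3000 cells), Dnmt3a (-0.45 per 3000 cells) and Eed (-0.63 per 3000 cells). Suz12 missed the threshold in 12 of 22 alternatives. Dnmt3a missed it with DESeq2 (0.60, adjusted p = 0.107), with no filter (0.48) and on MuSC identity genes (0.35). Ezh2 passed it in 8 of 22. The causes were not tested.

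Same-numbered libraries of the genotypes did not deviate together (r from -0.12 to 0.18), so the numbers were not taken as pairs, and the replicate block left 2 members lower and 2 higher, with 1758 genes lower and 1814 higher in all, against 1866 and 1908. Depth limits Tet1 and Ezh1, with as few as 4 and 3 counts in a Trpm7 cKO library.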
